A study of Stylophora pistillata with 6 samples.

Results

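Ubiquitin-linked gene models of the reef coral *Stylophora pistillata* are described here, 4 of the 25769 in the deposited count table (24180 of which had a read). Of these, 3 carry the name LONF3 (Spis16239, Spis3939 and Spis6761) and 1 the name HECD3 (Spis4052). They were chosen by their names from the study's list of coding sequences that differed between day and night, which had been selected on the adjusted p of the day-night contrast in these same libraries, so their day-night differences are given as a description and without a test. The names are best hits in other organisms, here the mouse proteins LON peptidase N-terminal domain and RING finger protein 3 and the ubiquitin ligase HECTD3. Names were at hand only for gene models on that list, so other relatives of LONF3 in the coral could not be counted, and "family" below means these 3 gene models.

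The samples were tips of coral branches kept at 25 °C under an irradiance of 175 µmol photons per square metre and second, in a daily cycle with 12 h of light. Day samples (3 libraries) were frozen when 1 h of light remained, and night samples (3 libraries) when 1 h of darkness remained. All came from microcolonies grown from 3 genetically identical parent colonies, and the labels do not tie a replicate number to a colony. The p-values below set the day-night difference against the spread between these samples. That spread may be technical, and it does not cover differences between genotypes. The symbiotic algae stayed in the tissue, and only reads assigned to coral gene models are used. The day libraries held 1552480 to 6619275 such reads and the night libraries 1916270 to 3062255, and the deepest of the 6, day replicate 3, was 4.26 times as deep as the shallowest. Both fixed markers of calcifying coral tissue were present in every library. Galaxin (Spis11963), a protein of the skeleton's organic matrix, had 131 to 676 reads, and the carbonic anhydrase CAH2 (Spis12076) had 338 to 4123 reads. The study links CAH2 to photosynthesis as well as to calcification, so it does not mark calcifying tissue alone.

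Ubiquitin ligases attach ubiquitin to chosen proteins and so mark many of them for the proteasome, the main route by which animal cells remove short-lived or damaged proteins. RING finger proteins bring the ubiquitin-carrying enzyme and the substrate together, whereas ligases of the HECT class, such as mammalian HECTD3, first take the ubiquitin onto themselves. LONF3 joins RING fingers to the substrate-binding domain that LON proteases carry at their N terminus, without the protease part. In reef corals the tissue passes each day between oxygen excess, while the algae photosynthesise, and oxygen shortage in the dark, and removal of damaged proteins belongs to the cell's answer to oxidative stress.

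The stretches that the study amplified by quantitative PCR for both genes are shown because they are the only coral sequences of LONF3 and HECD3 in the sources used here. They are printed 5′ to 3′ with the primer sites in capitals, and the last capitals are the reverse complement of the reverse primer. The primer list gives the gene name and not the gene model. By sequence, the LONF3 stretch is thus not tied to any of the LONF3 gene models. The study set its PCR of LONF3 beside an RNA-seq log2 fold change of 4.59, which is the value of Spis16239 in DESeq2 here.
LONF3: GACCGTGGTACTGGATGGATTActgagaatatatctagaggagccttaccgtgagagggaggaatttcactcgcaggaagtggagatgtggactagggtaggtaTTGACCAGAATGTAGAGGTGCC
HECD3: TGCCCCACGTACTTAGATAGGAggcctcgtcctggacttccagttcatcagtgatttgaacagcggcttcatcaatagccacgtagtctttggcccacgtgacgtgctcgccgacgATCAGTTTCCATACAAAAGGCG
The LONF3 stretch is 126 bases long with 49.2% G or C, and 1 of its 3 reading frames on the printed strand has no stop codon. The HECD3 stretch is 138 bases long with 52.9% G or C. On its printed strand 0 of 3 frames are free of stop codons, and on the opposite strand 1 of 3 is.

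The first LONF3 gene model, Spis16239, was nearly confined to the day samples. It had 271, 131 and 567 reads in day replicates 1, 2 and 3, against 17, 7 and 4 reads in night replicates 1, 2 and 3. Scaled to counts per 1000000 reads (CPM, with library sizes adjusted by edgeR's TMM factors), the day libraries stood at 97.0, 84.0 and 83.4 CPM and the night libraries at 5.50, 3.66 and 1.57 CPM. The day values lay close together and far above every night value. The mean was 88.1 ± 7.67 CPM (SD, n = 3) in day samples and 3.57 ± 1.97 CPM (SD, n = 3) in night samples, a log2 fold change of 4.57 (standard error 0.28) for day over night. By night the level rests on few reads: the exact Poisson 95% intervals were 3.21 to 8.81, 1.47 to 7.53 and 0.427 to 4.01 CPM for night replicates 1, 2 and 3, which cover counting error only. The night libraries also set the size of the difference: the log2 fold change was 5.12 without night replicate 1, the highest of them, and 4.21 without night replicate 3, the lowest. Among the 14921 gene models with at least 120 reads in all, the log2 fold change of Spis16239 ranked 4 from the top. In samples of whole tissue, more cells that express a gene and more RNA per cell cannot be told apart.

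The other LONF3 gene models ran the opposite way. Spis3939 had 181, 91 and 219 reads in day replicates 1, 2 and 3, against 411, 208 and 310 reads in night replicates 1, 2 and 3, which gave 64.8, 58.3 and 32.2 CPM in day samples and 133, 109 and 121 CPM in night samples. No day library reached the lowest night library, but day replicate 3 stood well below the other two day libraries. The means were 51.8 ± 17.2 CPM (SD, n = 3) in day samples and 121 ± 12.2 CPM (SD, n = 3) in night samples, a log2 fold change of -1.25 (standard error 0.22). Without day replicate 3 it was -0.97, and without day replicate 1 it was -1.47.

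Spis6761, the third LONF3 gene model, was the steadiest of the 4. Its 116, 78 and 306 reads in day replicates 1, 2 and 3 and 350, 226 and 287 reads in night replicates 1, 2 and 3 corresponded to 41.5, 49.99 and 45.02 CPM in day samples and 113, 118 and 112 CPM in night samples. The night libraries were almost level with one another and all lay above every day library. The means were 45.5 ± 4.26 CPM (SD, n = 3) in day samples and 115 ± 3.03 CPM (SD, n = 3) in night samples. The log2 fold change was -1.34 (standard error 0.18), and it stayed between -1.40 and -1.28 when each library was left out in turn.

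HECD3 (Spis4052), the HECT-class ligase, resembled these 2 LONF3 gene models. It had 169, 95 and 350 reads in day replicates 1, 2 and 3 and 418, 243 and 260 reads in night replicates 1, 2 and 3. This gave 60.5, 60.9 and 51.5 CPM in day samples and 135, 127 and 102 CPM in night samples, again with no overlap. The means were 57.6 ± 5.31 CPM (SD, n = 3) in day samples and 121 ± 17.4 CPM (SD, n = 3) in night samples, and the log2 fold change was -1.08 (standard error 0.19). Within same-numbered pairs of samples the day minus night difference was -74.8, -66.0 and -50.3 CPM for pairs 1, 2 and 3. The study's quantitative PCR on new samples, taken at the same times, did not find HECD3 lower by day. LONF3 was higher by day in that PCR, as Spis16239 was here.

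**Figure D1:**
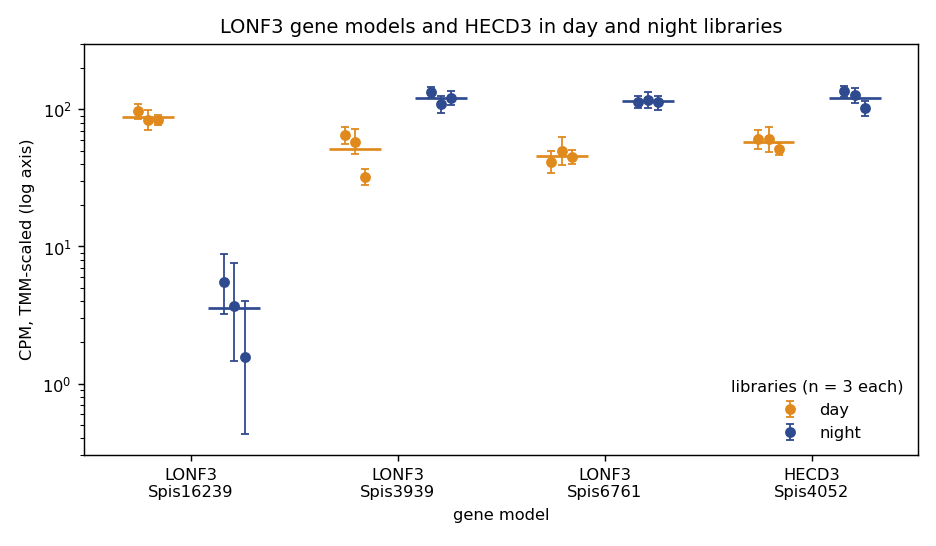
Level of each gene model in each library, in TMM-scaled CPM on a log axis. Points are libraries (3 day, 3 night) with exact Poisson 95% intervals for counting error, and horizontal lines are group means. Spis16239 averages 88.1 CPM in day and 3.57 CPM in night libraries, and the other 3 gene models lie lower in each day library than in any night library.

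So 1 of the 4 gene models was higher and 3 were lower by day with no overlap between the groups. Over all 24180 gene models with a read, 5.05% were higher by day without overlap and 5.04% were lower by day without overlap, 10.1% in either direction. In edgeR's quasi-likelihood test over all of them, 0.256% passed an adjusted p of 0.05 as higher by day and 0.409% as lower by day, and the 4 gene models were among these, 1 higher and 3 lower. Since the study chose them by this very contrast, nothing is read from that count. The median log2 fold change over all gene models tested was 0.0046.

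The scaled reads summed over the 3 LONF3 gene models were somewhat lower in day samples although 1 gene model was so much higher. The sum was 203, 192 and 161 CPM in day replicates 1, 2 and 3, against 252, 230 and 235 CPM in night replicates 1, 2 and 3. The means were 185 ± 22.1 CPM (SD, n = 3) in day samples and 239 ± 11.2 CPM (SD, n = 3) in night samples, a ratio of 0.775 or a log2 ratio of -0.37, with no overlap. Spis16239 was on average 84.5 CPM higher by day, which was less than the difference for Spis3939 and Spis6761 together. Their sum averaged 97.3 ± 17.4 CPM (SD, n = 3) in day samples and 236 ± 9.95 CPM (SD, n = 3) in night samples. Within same-numbered pairs the log2 ratio of the sum was -0.31, -0.26 and -0.55 for pairs 1, 2 and 3. These are reads and not reads per length, because the lengths of the coding sequences were not given in the sources used here. The sum therefore weights a longer gene model more, and its direction per length is not known. Whether the 3 gene models are separate genes or parts of the same gene was not tested. How reads that match several gene models were assigned is not given in the sources used here, and reads shared between similar LONF3 gene models could have been split among them.

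The make-up of the family differed most. Spis16239 held 47.7%, 43.7% and 51.9% of the LONF3 reads in day replicates 1, 2 and 3, against 2.19%, 1.59% and 0.666% in night replicates 1, 2 and 3. The Wilson 95% intervals of these shares ran from 38.2% to 54.9% over the day libraries and from 0.259% to 3.47% over the night libraries, and cover counting error only. The mean share was 47.8% ± 4.13 (SD, n = 3) in day samples and 1.48% ± 0.766 (SD, n = 3) in night samples. Spis3939 held 27.4% ± 6.42 (SD, n = 3) of the LONF3 reads in day samples and 50.5% ± 2.98 (SD, n = 3) in night samples. Spis6761 held 24.8% ± 3.94 (SD, n = 3) in day samples and 48.0% ± 3.14 (SD, n = 3) in night samples. The shares add up to the whole, so a higher share of Spis16239 means lower shares of the others. By day Spis16239 had the largest share in each of the 3 libraries, and by night Spis3939 and Spis6761 together held nearly all LONF3 reads in each of the 3.

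**Figure D2:**
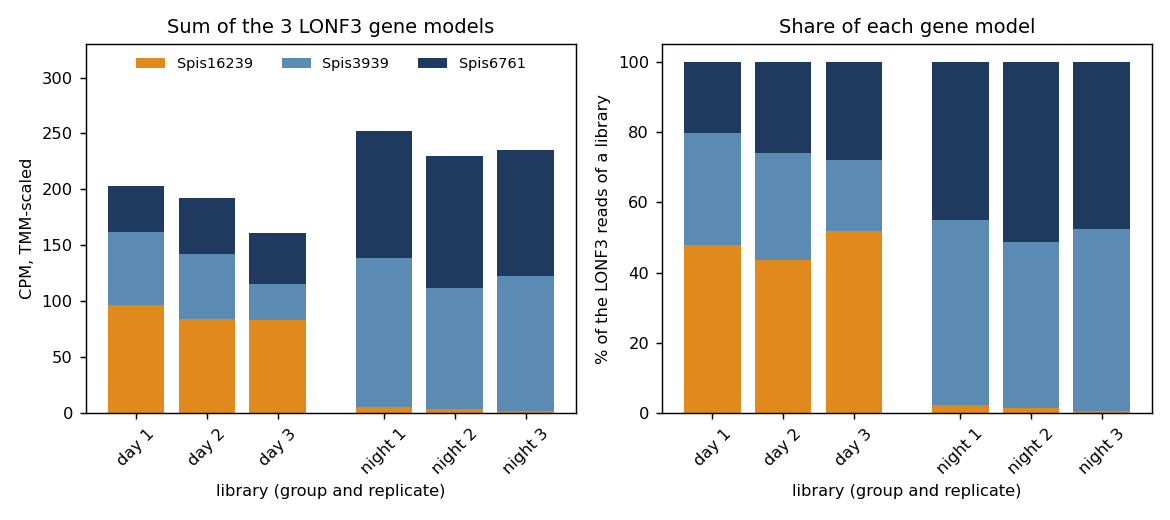
Left, TMM-scaled CPM of the 3 LONF3 gene models stacked for each library; right, the percentage of each library's LONF3 reads that fell on each gene model. The day bars on the left reach 161 to 203 CPM and the night bars 230 to 252 CPM, and Spis16239 takes 43.7% to 51.9% of the reads by day and 0.666% to 2.19% by night.

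The balance between the 2 night-high LONF3 gene models did not separate the groups. The reads on Spis3939 divided by those on Spis6761 came to 1.56, 1.17 and 0.716 in day replicates 1, 2 and 3, against 1.17, 0.920 and 1.08 in night replicates 1, 2 and 3, so the day values spanned all of the night values. The ratio of HECD3 to Spis6761 reads was 1.46, 1.22 and 1.14 in day replicates 1, 2 and 3 and 1.19, 1.08 and 0.906 in night replicates 1, 2 and 3, which overlapped as well, although the day sample had the higher ratio in 3 of 3 same-numbered pairs.

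The spread of the 4 gene models around their group means differed widely. An adjusted p depends on this spread as well as on the fold, so the study's choice used it, and its values are a description. Measured as the SD of log2 CPM (with a prior count of 1) within groups, it was 0.10 for Spis6761, 0.18 for HECD3, 0.40 for Spis3939 and 0.59 for Spis16239. Of the gene models with a mean level within a factor of 2, 5.99% of 4426 had a smaller spread than Spis6761 and 34.9% of 4094 a smaller spread than HECD3, whereas 90.0% of 4189 had a smaller spread than Spis3939 and 96.5% of 6184 a smaller one than Spis16239. For Spis16239 this matching used a mean of 45.8 CPM, far above its night values. The dispersion fitted by edgeR, which allows for counting error, ordered them otherwise. It was 0.045 for Spis3939, 0.033 for Spis16239, 0.027 for HECD3 and 0.023 for Spis6761, beside 0.054 in common for all gene models. The spread of Spis16239 lay in the night samples, with an SD of 0.12 in day samples and 0.83 in night samples, and its night libraries held 4 to 17 reads. For Spis3939 it lay in the day samples, at 0.54 by day and 0.15 by night, with day replicate 3 at 0.62 below its group mean. In that library Spis6761 stood 0.01 and HECD3 0.16 below theirs, so the low value of Spis3939 was not shared to that extent by the others. Night replicate 3 was the lowest night library for both Spis16239 and HECD3, at 0.90 and 0.24 below the group mean.

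**Figure D3:**
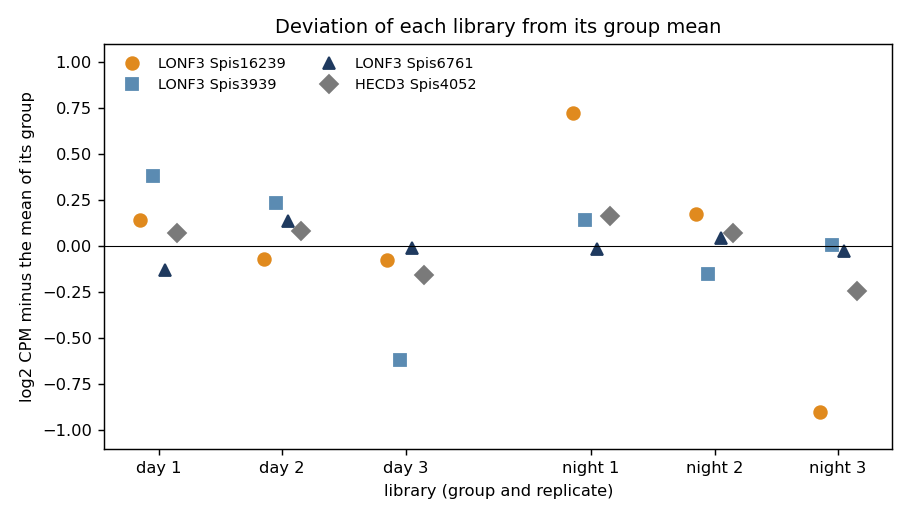
Log2 CPM of each gene model minus the mean of its group, for each of the 6 libraries, so that 0 is the group mean. Spis6761 stays within 0.14 of 0 in every library, Spis3939 is at -0.62 in day replicate 3, and Spis16239 ranges from -0.90 to 0.73 over the night libraries.

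For each gene model the nearest profiles were sought among the 14920 others with at least 120 reads, as the root mean square difference of centred log2 CPM over the 6 libraries. The day-night difference dominates such a profile, so it describes likeness and no more. The nearest to Spis16239 was HEY (Spis21953), a repressor that acts downstream of Notch in other animals, at 0.55, followed among named gene models by the cryptochrome CRY1 (Spis11906) at 1.00 and the transcription factor ETS2 (Spis5906) at 1.07. HEY had 764, 710 and 810 CPM in day replicates 1, 2 and 3 and 61.2, 54.8 and 45.03 CPM in night replicates 1, 2 and 3. Like Spis16239 it was lowest in night replicate 3. For Spis16239 that place rests on 4 reads against 7 in night replicate 2, and their Poisson intervals overlap. The nearest unnamed gene model, Spis7860, was at 0 in all 3 night libraries, and its distance of 0.65 depends on the prior count.

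Spis16239 ranked 4 of 14921 from the top by log2 fold change and had 4 to 17 reads by night, so few profiles could lie near it. The night-high gene models had much closer neighbours in profile, and nothing is read from that contrast. For Spis6761 these were MALR1 (Spis16164) at 0.05, SPIN (Spis17125), whose fly relative spinster is a transporter of late endosomes and lysosomes, at 0.12, and the cell adhesion protein LSAMP (Spis21041) at 0.13. For Spis3939 they were P4HTM (Spis3815), a transmembrane prolyl hydroxylase, at 0.21, SPIN at 0.27 and HECD3 itself at 0.29, ranks 1, 6 and 10 of 14920. For HECD3 they were RDR1 (Spis11277) at 0.12, the receptor phosphatase LAR (Spis17942) at 0.13 and the deoxycytidylate deaminase DCTD (Spis21988) at 0.14. LAR had 380, 347 and 350 CPM in day replicates 1, 2 and 3 against 900, 738 and 529 CPM in night replicates 1, 2 and 3, with night replicate 3 lowest as for HECD3. Among the 4 gene models themselves, HECD3 and Spis6761 differed by 0.20 and the 2 night-high LONF3 gene models by 0.34. The nearest unnamed profiles were those of Spis16397 at 0.23 for Spis3939, Spis9825 at 0.20 for Spis6761 and Spis8148 at 0.11 for HECD3.

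Gene models with neighbouring numbers were tested, since their values played no part in choosing the 4. Whether neighbouring numbers lie side by side in the genome was not tested. All 39 gene models with a number within 5 of one of the 4 had reads. Of these 39, 1 was called by edgeR (adjusted p under 0.05), beside 0.666% of all 24180 gene models. An unadjusted p under 0.05 was found for 6 of the 39, beside 1294 of the 24180, and 4 of the 6 were neighbours of Spis16239. The median log2 fold change of the 39 was 0.03. The one that passed was ORCT (Spis16234), named after the fly's organic cation transporter and 5 numbers below Spis16239. ORCT is itself on the study's list, so its call is no independent evidence. ORCT had 3, 2 and 16 reads in day replicates 1, 2 and 3 against 27, 13 and 28 reads in night replicates 1, 2 and 3. At 1.57 ± 0.687 CPM (SD, n = 3) in day samples and 8.83 ± 2.09 CPM (SD, n = 3) in night samples it was lower by day, opposite to Spis16239, by a log2 fold change of -2.32 with a standard error of 0.46 (edgeR, adjusted p = 0.0067). Leaving out night replicate 3 ended the call (edgeR, adjusted p = 0.055), as did limma-voom (0.058) and DESeq2 with the replicate number as a block (0.057), and over all alternatives its adjusted p ran from 2.5e-05 to 0.058.

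The gene models directly beside Spis16239 in number had small differences that did not pass, with log2 fold changes of 0.53 for Spis16238 and 0.52 for Spis16240 (edgeR, adjusted p = 0.66 and 1.0). Spis16243, singled out after its values were seen, averaged 11.4 ± 1.08 CPM (SD, n = 3) in day samples and 22.6 ± 4.13 CPM (SD, n = 3) in night samples and missed the threshold (edgeR, adjusted p = 0.12). Blocking edgeR on the replicate number called it (0.013), and 2 of the 39 neighbours were then called beside 1.69% of all gene models, but the other 15 alternatives did not call it. Around Spis3939, Spis6761 and HECD3, 0 of 29 neighbours passed in edgeR, with or without the block, in DESeq2 or in limma-voom (which tested 25 of them). Beside 1294 of all 24180 gene models, 2 of the 29 neighbours had an unadjusted p under 0.05 in edgeR. Those next to Spis6761 were nearly level, with log2 fold changes of 0.11 for Spis6760.t1 and 0.09 for Spis6762. Next to Spis3939 stood Spis3938 at -0.15 and Spis3940 at 0.77, and Spis4051, next to HECD3, was at 0.04. Spis4053 had 1 read in all.

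**Figure D4:**
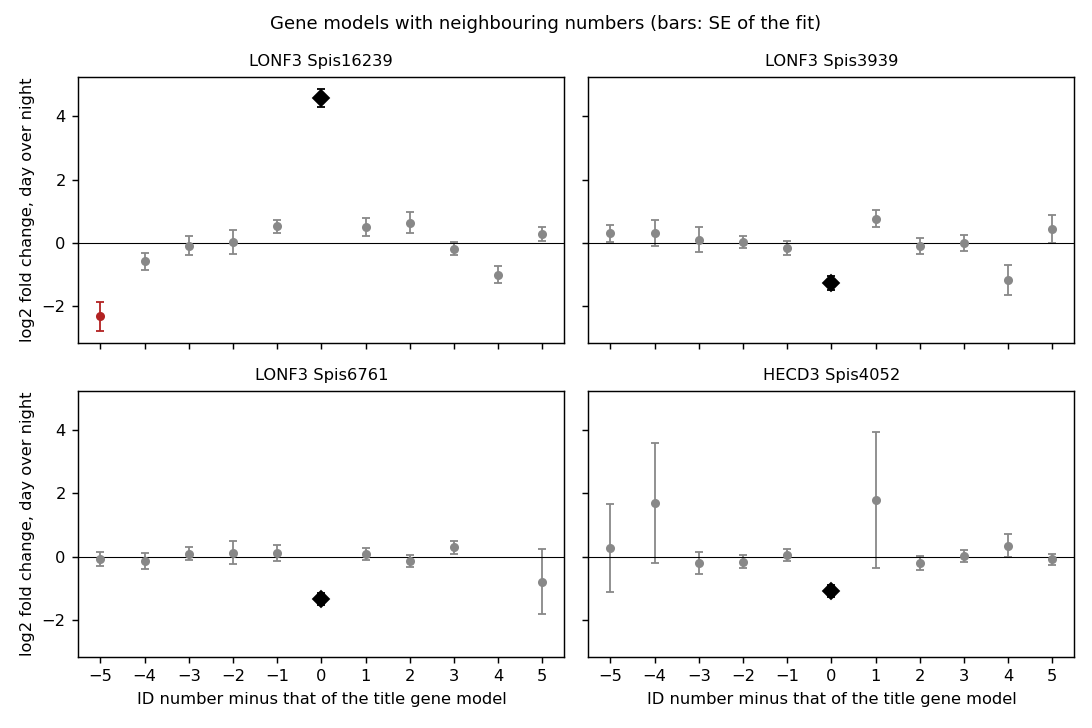
Log2 fold change of day over night (with its standard error from edgeR) for gene models whose number lies within 5 of each of the 4 gene models, which are the black diamonds at 0. Red marks an adjusted p under 0.05 and grey the rest: only ORCT, at -2.32 and 5 numbers below Spis16239, is red among the 39 neighbours.

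Other named genes of protein turnover went in both directions. The list held 5 gene models, all from the study's own list and so no independent evidence of direction. By edgeR's test 2 rose and 2 fell, and 1 was not called, beside 0.256% of all gene models higher and 0.409% lower. The median log2 fold change was 0.71 beside 0.0046 for all gene models. Since the study's choice used this contrast, nothing is read from the count or the median. NCOA4 (Spis8191), the receptor that carries ferritin into autophagy in mammals, stood at 103 ± 31.7 CPM (SD, n = 3) in day samples and 33.7 ± 3.19 CPM (SD, n = 3) in night samples. KLH12 (Spis18160), which in vertebrates brings substrates to a cullin ubiquitin ligase, stood at 16.0 ± 2.68 CPM (SD, n = 3) in day samples and 5.29 ± 0.966 CPM (SD, n = 3) in night samples. NCOA4 had a log2 fold change of 1.63 with a standard error of 0.21 (edgeR, adjusted p = 1.8e-05), and KLH12 one of 1.56 with a standard error of 0.33 (0.014).

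Those that fell were SCRB2 (Spis3490), a lysosomal membrane protein, with a log2 fold change of -1.18 and a standard error of 0.21 (edgeR, adjusted p = 0.002), and CPI1 (Spis1325), an inhibitor of cysteine proteases, with -1.003 and a standard error of 0.20 (edgeR, adjusted p = 0.0082). NF2L1 (Spis2715), which induces proteasome genes in mammals, had 317 ± 49.8 CPM (SD, n = 3) in day samples and 195 ± 18.2 CPM (SD, n = 3) in night samples and missed the threshold (edgeR, adjusted p = 0.17), which it passed under the block in edgeR (0.018) but not in DESeq2 (0.098), and 13 of 16 alternatives did not call it. The count of 4 was 2 without night replicate 1, when KLH12 (edgeR, adjusted p = 0.064) and CPI1 (0.058) missed the threshold. KLH12 also missed it without day replicate 2 (0.072) or night replicate 2 (0.13), in the thinned libraries (0.16), with limma-voom (0.078) and under the DESeq2 block (0.15), and over all alternatives its adjusted p ran from 0.00017 to 0.16. CPI1 missed it under the DESeq2 block (0.063) and with the values as deposited, where its log2 fold change was -0.13 (1.0). Those deposited values include the reads of gene models whose longer IDs start with that of CPI1. Over the other alternatives the adjusted p of CPI1 ran from 8.3e-05 to 0.063. SCRB2 did not pass with limma-voom (0.054), and its other adjusted p values started at 8.4e-08.

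Protein folding genes were described by 7 gene models, again all from the study's list and so no independent evidence of direction. By edgeR's test 4 rose and 0 fell by day, and 3 were not called, beside the same 0.256% higher and 0.409% lower of all gene models. The median log2 fold change was 1.03 beside 0.0046, and nothing is read from it or from the count. The disulfide isomerases PDIA4 and PDIA6, the heat shock protein HSP68 and CREL2 rose, and the endoplasmic reticulum chaperones GRP78, ENPL and CALR had log2 fold changes of 1.11, 0.99 and 0.77 (edgeR, adjusted p = 0.053, 0.099 and 0.18). All 7 were called by edgeR under the block and 0 by limma-voom. A single one was called in each case when day replicate 1, night replicate 1 or night replicate 2 was left out (1 of 7). The largest log2 fold change on either list was that of HSP68, at 2.12. It rests on low night levels of 1.04 to 3.13 CPM, and HSP68 had as few as 2 reads in a library.

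Both markers of calcifying tissue rose by day too (edgeR, adjusted p = 0.028 and 0.0001), galaxin at 109 ± 17.3 CPM (SD, n = 3) in day samples and 61.9 ± 6.81 CPM (SD, n = 3) in night samples and CAH2 at 588 ± 57.8 CPM (SD, n = 3) in day samples and 204 ± 46.5 CPM (SD, n = 3) in night samples. Galaxin missed the threshold under the DESeq2 block (adjusted p = 0.057). Both are on the study's list too, so their direction is no independent evidence. The part that the mix of cell types has in the values of LONF3 and HECD3 was not tested.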

How the data were processed

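RNA of coral branch tips was measured in 6 libraries. To make the deposited counts, the authors selected poly(A) RNA, sequenced it in colorspace on a SOLiD instrument, aligned reads with Bowtie (version 1.2.3, per the submitters' processing notes) against coral coding sequences, and tallied them per gene model in a Python script. The deposited counts are whole numbers without normalization or pooling. Where the ID of a gene model is the start of longer IDs, its deposited value includes theirs (2371 gene models, 9.2%). These reads were subtracted, longest IDs first. No value fell below 0, and the totals equalled the mapped reads that the study states in 6 of 6 libraries. The 4 gene models described here were not affected.

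The contrast of day over night was fitted by edgeR 4.0.16 under R 4.3.3 (TMM factors, estimateDisp, robust quasi-likelihood F test, two-sided, Benjamini-Hochberg adjustment over 24180 gene models with a read, threshold 0.05). The other 1589 had none. Standard errors were obtained from each log2 fold change and its F. CPM, shares and intervals were computed with Python 3.11.15, numpy 2.4.6, pandas 2.3.3 and scipy 1.17.1, and plots with matplotlib 3.10.9. The code was tested on simulated data. Reads carry no molecular identifiers, so intervals cover counting error only. A level of 17 reads or fewer, as for Spis16239 by night, is therefore imprecise.

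The gene models and gene lists were chosen with earlier results of these data known. Genes named are the 4 gene models, those with numbers within 5 of theirs that passed or lie next to them, 2 lists of protein turnover and folding genes, and for each of the 4 the 3 named and 1 unnamed gene models of nearest profile. Spis16243 lies outside this rule. Of the 4 IDs, 0 were found in the RefSeq gene table used here, so no coordinates are given.

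Samples of the same replicate number deviated together from their group means (correlations of 0.24, 0.19 and 0.37 over 14262 gene models, against -0.28 to 0.09 for other pairs), although no label ties a number to a parent colony. The fit reported has no block, and fits with the replicate number as a block are given beside the results they change. Alternatives were library totals without TMM, RLE factors, at least 10 reads, filterByExpr, DESeq2 1.42.0, limma-voom (limma 3.58.1), the replicate block in edgeR and DESeq2, values as deposited, thinning to the smallest library, pooled reads of each group, medians over pairs, and leaving out each library.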

Additional observations from a re-analysis of the deposited data

How the results depend on the processing

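The direction of each of the 4 gene models, of the LONF3 sum and of the 3 shares held under every alternative tried. None of the alternatives weighted reads by length, so they cannot show the direction of the sum per length. Each of 106 values for the gene models, the sum and the shares moved by less than the spread between replicates, but nothing is read from that count. Leaving out 1 of 3 libraries can hardly move a group mean by more than that spread. The shares from the values as deposited were the same by construction, since the subtraction did not affect the 4 gene models. With the replicate block the log2 fold changes were 4.61 for Spis16239, -1.30 for Spis3939, -1.34 for Spis6761 and -1.07 for HECD3 in edgeR. The log2 ratio of the LONF3 sum ran from -0.45 to -0.27, and the day minus night difference in the share of Spis16239 from 44.2 to 48.4 percentage points.

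Counts of calls depended more on the processing. The 161 gene models called in edgeR became 409 with the replicate block (209 higher and 200 lower by day), 79 with limma-voom, and 94 to 233 when a library was left out, 94 without night replicate 2, 97 without night replicate 1 and 233 without day replicate 3. Among the 39 neighbours the count of 1 became 2 with the replicate block, 0 with limma-voom, 0 with the blocked DESeq2 fit, and 0 to 1 when a library was left out. Of the 5 turnover genes, 2 passed with limma-voom, 2 in the blocked DESeq2 fit, and 2 to 4 when a library was left out. Of the 7 folding genes, 7 passed in DESeq2, 7 with the replicate block in edgeR, 0 with limma-voom, and 1 to 6 when a library was left out. On the same 17122 gene models that limma-voom tested, edgeR called 47 as higher and 76 as lower by day (limma-voom 26 and 53), and 3 of the 7 folding genes. The cause of these shifts was not tested.

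Among the 39 neighbours, both lists and the markers, the replicate block in edgeR changed the call for NF2L1, Spis16243, GRP78, ENPL and CALR. Galaxin, HSP68, KLH12, CPI1 and ORCT missed the threshold under the DESeq2 block (adjusted p = 0.057, 0.11, 0.15, 0.063 and 0.057). GRP78, ENPL and CALR, not called in the fit reported, passed it there (DESeq2 block, adjusted p = 0.0037, 0.011 and 0.032). The share of calls higher by day was 38.5% with edgeR, 51.1% with the block, 41.2% with library totals and 54.9% without day replicate 3. Depth limits the night level of Spis16239, since a library held as few as 4 of its reads.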
